A study of Mus musculus with 55 samples.

Results

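The newly made B cell of mouse bone marrow was compared with the first committed B cell precursor on oligonucleotide arrays. Immature B cells had been sorted as B220low cells with surface IgM, and pre-BI cells as B220+ c-kit+ cells. The 2 populations were taken by their array titles and made up 22 of the 55 arrays, which is 11 of 26 preparations: 5 of immature B cells (sorts 1, 2, 8, 9 and 11) and 6 of pre-BI cells (sorts 1, 2, 3, 8, 9 and 10). Each preparation had been hybridised to 2 arrays with different probe sets, a first set and a second one whose array titles end in b. The other preparations were 5 each of large pre-BII, small pre-BII and mature B cells, which entered the statistical fit and are given where they place a change along the lineage. The label of immature sort 1 on the first set does not repeat the gate that the other immature labels give. The labels name no strain, age or number of animals, and are silent on whether the sorts used separate animals; the p-values therefore cover the spread among preparations, which may be technical.

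Pre-BI cells have begun to rearrange the immunoglobulin heavy chain locus and make a surrogate light chain from lambda5 and VpreB, which pairs with the heavy chain in the pre-B cell receptor. Signals from that receptor and from the interleukin 7 receptor drive rounds of division, after which the cells stop cycling and rearrange the light chain loci. An immature B cell carries the finished receptor as surface IgM, is tested against self antigens, and leaves the marrow for the spleen.

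Levels are normalised intensities on a linear scale, on which values near 0 can be negative. A noise limit, set from the spread of the negative values, was 251 for first-set and 319 for b-set arrays and marks what could be told from 0. Folds and log2 differences of single genes are between means of values raised to that limit, written "at least" where the dimmer population had no value over it. Confidence intervals, and differences said to be of the fit, come from the fit itself, whose floor lies under that limit and so gives larger values for dim genes. Each adjusted p is that of limma, with the method of Benjamini and Hochberg applied across the 10229 tested probe sets, and "higher", "lower" or "rose" of a gene means an adjusted p under 0.05. Before normalisation the trimmed means of these arrays spanned a 4.67-fold range for the first set and a 3.84-fold range for the b set, and 19.7 to 26.3% of values were negative on their first-set arrays and 33.9 to 42.1% on their b-set arrays. An 18S ribosomal RNA control read 3741 to 14192 on the first-set arrays of sorts 1 to 3 and -287 to 3 on those of sorts 8 to 11. Both populations had preparations in each range of sort numbers, and differences within each range are given beside some of the leading genes. Calls of named genes that were lost within a range are listed near the end. Bulk arrays cannot tell fewer cells of a type from less RNA per cell.

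Immature B cells differed from pre-BI cells at 890 probe sets. Of the 10229 tested, 440 were higher (4.3%) and 450 were lower (4.4%). Counted once per gene by its brightest probe set, 278 of 5027 genes were higher (5.53%) and 302 were lower (6.01%). Counts of gene lists below are to be read beside these shares. The preparations of the 2 populations did not overlap at 305 of the 440 higher and 318 of the 450 lower probe sets, and at 721 (7.05%) of all those tested. Of the higher probe sets, 119 were under the noise limit in every pre-BI preparation, and of the lower ones 160 were under it in every immature preparation. In 15 of the higher calls no immature value was over the limit, and in 14 of the lower calls no pre-BI value was. Shared levels were asked of the 1947 probe sets over the limit in all 11 preparations: 186 (9.55%) had a 95% confidence interval of the difference wholly within 1.5-fold, 191 were higher, 175 were lower and 1395 were neither called nor shown to be shared. By gene this was 118 of 1341 (8.8%).

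**Figure D1:**
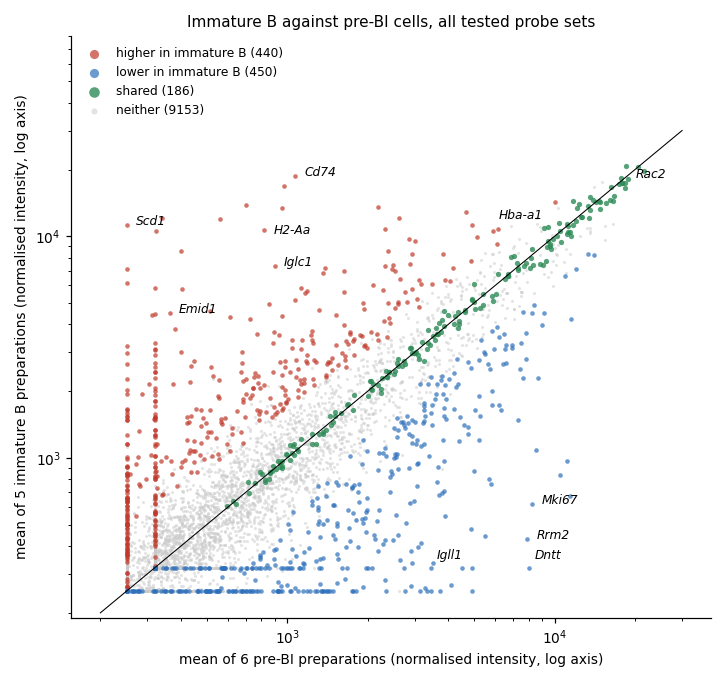
Mean normalised intensity in 5 immature B preparations (vertical, log axis) against that in 6 pre-BI preparations (horizontal, log axis) for all 10229 tested probe sets, with means under the noise limit drawn at it. The 440 higher probe sets lie on or above the line of equality, the 450 lower ones on or beneath it and the 186 shared ones along it. A call with both means under the limit is drawn on the line. The vertical and horizontal bands are probe sets at the limits of 251 and 319.

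The genes behind the gates were read first. Ptprc, which encodes the CD45 protein whose B cell form is B220, was 9039, 7327, 7489, 8386 and 9380 in immature sorts 1, 2, 8, 9 and 11, against 2148 to 3769 (median 2978) in the 6 pre-BI preparations. The groups did not overlap, and Ptprc was 2.89-fold higher in immature cells (log2 difference 1.53 ± 0.16 SE, adjusted p = 1.8e-08), although their gate is B220low. Whether the probe set reads only some forms of CD45 was not tested. Kit, the receptor that defined the pre-BI gate, averaged 25.4 in immature and 285 in pre-BI cells (adjusted p = 0.016). It was over the limit in 0 of 5 immature and 2 of 6 pre-BI preparations, and its call was lost without immature sort 9 or 11 (adjusted p = 0.0663 in both). The call of Kit was also lost within sorts 1 to 3, where the log2 difference of the fit was -1.52 (adjusted p = 0.733), against -4.83 within sorts 8 to 11. Ighm, the mu heavy chain, averaged 14270 ± 1923 (SD, n = 5) in immature and 10080 ± 1707 (n = 6) in pre-BI cells on the first set (adjusted p = 0.02). Its preparations overlapped, and the 1.42-fold call was lost without pre-BI sort 2 or 8 or immature sort 9 or 11 (adjusted p from 0.0507 to 0.078). A b-set probe set of Ighm was 1.74-fold higher (adjusted p = 0.042), a call lost without any 1 of pre-BI sorts 2, 8, 9 and 10 and immature sorts 1, 8 and 11 (adjusted p from 0.0664 to 0.149). Il2ra, which encodes the CD25 that marks the pre-BII stages, was under the limit in all 11 preparations.

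The 3 marker genes, chosen with earlier results of these data known, were read next and give no independent support for the labels. Igll1, which encodes lambda5, was -303, -198, -63.2, -83.2 and -121 in immature sorts 1, 2, 8, 9 and 11, all under the limit, against 1225 to 6162 (median 2840) in pre-BI cells, at least 8.8-fold lower (adjusted p = 9.1e-09). Pre-BI sorts 1, 2 and 3 were the low ones, and the log2 difference of the fit was -7.77 within sorts 1 to 3 and -9.57 within sorts 8 to 11. The groups did not overlap for any of the 3. Emid1, an EMI domain protein, was 3922, 5894, 4921, 4743 and 3082 in the immature preparations, against 178 to 443 (median 394) in pre-BI cells, 11.5-fold higher (adjusted p = 3.8e-10). Ms4a1, which encodes CD20, was 8972, 6891, 5970, 5273 and 8543 in immature cells on one probe set and under the limit in all 6 pre-BI preparations, at least 27.8-fold higher (adjusted p = 3.3e-15). A second Ms4a1 probe set read 1129 to 4093 in pre-BI cells, so the probe sets disagree on whether pre-BI cells hold this transcript; it too was higher in immature cells, 4.88-fold (adjusted p = 1.2e-08). Not every marker could be read: Cd34 and Spn were under the limit in all 11 preparations, Pax5 passed it in 1, and Flt3 and Il7r passed it in 3 and 2 pre-BI preparations.

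Promoter windows of genes that moved together are shown for 3 groups described next: the surrogate light chain genes, which were lower, with the E box letters CAGGTG in capitals; a class II pair, which was higher, with CCAAT in capitals; and a cell cycle pair, which was lower, with CCAAT and, in Mcm6, TTTGGCGC in capitals. Each runs from 250 bases before to 50 after the RefSeq gene start in GRCm38.p6, 5′ to 3′ on the gene's strand, and letters were searched on both strands, so a reverse-strand match reads as CACCTG or ATTGG. Igll1 and Vpreb1 lie on the minus strand at chr16:16863936-16864235 and chr16:16869206-16869505, H2-Aa on the minus strand at chr17:34287774-34288073, H2-Eb1 on the plus strand at chr17:34305617-34305916, Cdk1 on the minus strand at chr10:69352863-69353162 and Mcm6 on the minus strand at chr1:128359656-128359955.
Igll1: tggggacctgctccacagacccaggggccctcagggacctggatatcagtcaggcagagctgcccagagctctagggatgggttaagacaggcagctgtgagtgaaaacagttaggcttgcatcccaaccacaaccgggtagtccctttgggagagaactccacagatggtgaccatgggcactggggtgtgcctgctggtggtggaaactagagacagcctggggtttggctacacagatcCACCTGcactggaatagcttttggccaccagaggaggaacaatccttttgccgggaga
Vpreb1: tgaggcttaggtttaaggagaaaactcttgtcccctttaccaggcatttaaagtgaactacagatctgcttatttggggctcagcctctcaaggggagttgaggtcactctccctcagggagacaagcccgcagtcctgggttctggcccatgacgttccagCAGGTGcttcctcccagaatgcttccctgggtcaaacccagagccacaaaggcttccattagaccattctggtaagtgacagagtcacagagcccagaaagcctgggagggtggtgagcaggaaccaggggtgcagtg
H2-Aa: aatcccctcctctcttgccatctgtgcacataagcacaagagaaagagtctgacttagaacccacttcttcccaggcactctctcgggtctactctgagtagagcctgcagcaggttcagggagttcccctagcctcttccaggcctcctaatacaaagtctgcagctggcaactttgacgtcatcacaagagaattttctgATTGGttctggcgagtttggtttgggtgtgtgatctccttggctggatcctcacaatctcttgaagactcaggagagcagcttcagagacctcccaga
H2-Eb1: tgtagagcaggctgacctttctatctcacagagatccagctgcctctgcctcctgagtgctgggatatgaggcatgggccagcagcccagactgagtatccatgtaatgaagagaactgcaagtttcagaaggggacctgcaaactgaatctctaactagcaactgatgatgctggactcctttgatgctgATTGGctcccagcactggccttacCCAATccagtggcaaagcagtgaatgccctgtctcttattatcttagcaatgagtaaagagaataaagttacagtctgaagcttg
Cdk1: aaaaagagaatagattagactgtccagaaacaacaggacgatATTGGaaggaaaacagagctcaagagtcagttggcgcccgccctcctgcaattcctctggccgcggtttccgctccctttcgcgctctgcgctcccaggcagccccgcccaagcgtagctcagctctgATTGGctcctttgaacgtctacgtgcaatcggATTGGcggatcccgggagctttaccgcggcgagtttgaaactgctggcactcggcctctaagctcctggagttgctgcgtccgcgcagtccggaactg
Mcm6: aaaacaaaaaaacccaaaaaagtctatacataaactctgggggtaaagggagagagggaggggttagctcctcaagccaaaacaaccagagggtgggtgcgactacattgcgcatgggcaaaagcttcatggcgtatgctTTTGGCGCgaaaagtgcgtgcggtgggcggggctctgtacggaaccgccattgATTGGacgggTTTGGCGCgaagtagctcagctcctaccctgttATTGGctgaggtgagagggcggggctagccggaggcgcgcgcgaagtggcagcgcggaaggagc
Of all 32851 RefSeq windows of this length, 20.2% hold CAGGTG, 37.4% hold CCAAT and 0.514% hold TTTGGCGC. These are matches of letters and not measured sites. The windows were picked for display and each holds the letters marked in it, so they do not show how common the letters are in a group. How often CAGGTG occurs in the surrogate light chain list is not given here. Letters of EBF, octamer and a second E2F motif were searched as well and are not marked in these windows.

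The pre-B receptor and the recombination enzymes were lower in immature cells. Of the 4 measured genes of the surrogate light chain list, which also holds Dntt, 3 were lower and none was higher. Vpreb1, the partner of lambda5, was 320.1, 504, 289, -143 and 286 in immature preparations, against 3634 to 5733 (median 4394) in pre-BI cells, 12.8-fold lower (adjusted p = 1.8e-06). Its log2 difference of the fit was -3.42 within sorts 1 to 3 and -5.81 within sorts 8 to 11. Dntt, the terminal transferase that adds bases at heavy chain joints, was 25.7, -33.8, -22.6, 0.7 and 22.5 in immature preparations, against 7592 to 8474 (median 7998) in pre-BI cells, and no immature preparation was over the limit. That was at least 25.2-fold lower (adjusted p = 2.4e-10), with log2 differences of the fit of -9.26 within sorts 1 to 3 and -9.59 within sorts 8 to 11. Vpreb3, which is related to VpreB but binds other chains inside the cell, was the member that did not pass, at 8444 ± 2243 in immature and 7275 ± 1163 in pre-BI cells (SD, adjusted p = 0.9).

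Of 11 tested genes of V(D)J recombination and end joining, 6 were lower, 1 was higher and 4 passed in neither direction, with a median log2 difference of -1.45 in the fit, against 0.0124 over all genes tested, and -0.786 at the noise limit, against 0. Rag1, a subunit of the recombinase, was 186, 109, 118, 106 and 96.4 in immature preparations, all under the limit, against 1250 to 3737 (median 2224) in pre-BI cells (at least 8.6-fold lower, adjusted p = 2.2e-11). Rag2 was lower too (adjusted p = 0.0019). Hmgb1 and Hmgb2, chromatin proteins that assist the recombinase, averaged 4248 and 125 in immature cells, against 11530 and 4906 in pre-BI cells. The log2 difference of the fit for Hmgb2 was -4.13 within sorts 1 to 3 and -8.13 within sorts 8 to 11. H2ax, the histone phosphorylated at DNA breaks, was 12.4-fold lower. Hmgb2 and H2ax are also known to follow the cell cycle, and they averaged 9366 and 12370 in the large pre-BII cells. The member that went the other way was Polm, a polymerase that fills ends at light chain joints: it averaged 5645 ± 1436 in immature and 1183 ± 553 in pre-BI cells, 5.05-fold higher (adjusted p = 2.7e-07).

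Of 13 progenitor surface genes tested, 6 were lower and 1 was higher. Enpep, the BP-1 peptidase of early B cells, was 479, 169.8, 237, 353 and 176 in immature preparations, against 881 to 2558 (median 1598) in pre-BI cells (5.07-fold lower, adjusted p = 4.6e-07). Eng, which encodes endoglin, was under the limit in all immature preparations and 709 to 1626 in pre-BI cells (at least 3.33-fold lower, adjusted p = 1.3e-07). Cd93, the AA4.1 antigen that marks precursors and immature cells alike, was 1.99-fold lower, at 4508 in immature against 9128 in pre-BI cells, and averaged 554 in mature cells. Thy1 and Notch1 were the remaining lower members beside Kit, and on the probe sets used both were under the limit in all immature preparations. Ly6d, a surface protein that marks B cell specification, was 15950, 15950, 13480, 12160 and 10390 in immature preparations, against 1549 to 3394 (median 2161) in pre-BI cells, 6.35-fold higher (adjusted p = 2.2e-11). Cd24a, the heat stable antigen, was shared: 13280, 15540, 12850, 14370 and 13750 in immature against 11130 to 13960 in pre-BI cells, with a log2 difference of the fit of 0.18 (95% confidence interval -0.05 to 0.41).

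Among 17 tested transcription factors of progenitors and commitment, 2 were lower and none was higher, against 6.01% lower and 5.53% higher of all genes. Myb, a factor of dividing progenitors, was 2656, 3254, 4125, 4832 and 3424 in immature preparations, against 6280 to 9962 (median 7890) in pre-BI cells (2.15-fold lower, adjusted p = 0.0026). Lef1 was under the limit in all immature preparations and spread from 242 to 2718 in pre-BI cells, highest in sorts 1 and 3 (adjusted p = 3.6e-05). Tcf12, which encodes the E protein HEB, was shared at 895 ± 151 in immature and 906 ± 191 in pre-BI cells (log2 difference 95% confidence interval -0.51 to 0.51), although it averaged 1796 and 2333 in the large and small pre-BII cells between them. Ebf1, the early B cell factor, averaged 716 ± 373 in immature and 1729 ± 928 in pre-BI cells without passing (adjusted p = 0.25).

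Outside the lists, the largest rises included Scd1, Samhd1, Pld4, Lsp1 and Fcrla. Scd1, which encodes stearoyl-CoA desaturase, an enzyme of fatty acid synthesis, was 5200, 7420, 14510, 17420 and 11410 in immature preparations, against 97 to 457 (median 229) in pre-BI cells, 35.2-fold higher (adjusted p = 1.4e-11). Immature sorts 1 and 2 were the low ones, and the log2 difference of the fit was 5.26 within sorts 1 to 3 and 5.62 within sorts 8 to 11. Samhd1, which degrades deoxynucleotides, was 13.6-fold higher (2708, 4832, 4928, 4859 and 4699 in immature preparations, against 187 to 424, median 291, in pre-BI cells). Pld4, an enzyme of lysosomes, was 3877, 5795, 3044, 4295 and 5941 in immature preparations, against -0.2 to 1002 (median 593) in pre-BI cells (8.74-fold higher). Lsp1, an actin-binding protein of leukocytes, averaged 4341 ± 1617 in immature and 613 ± 282 in pre-BI cells (7.09-fold higher, adjusted p = 4.8e-06), and immature sort 1 had the lowest value of Lsp1 and of Samhd1. Fcrla, an Fc receptor-like protein held inside B cells, was 7.7-fold higher (adjusted p = 3.1e-10).

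**Figure D2:**
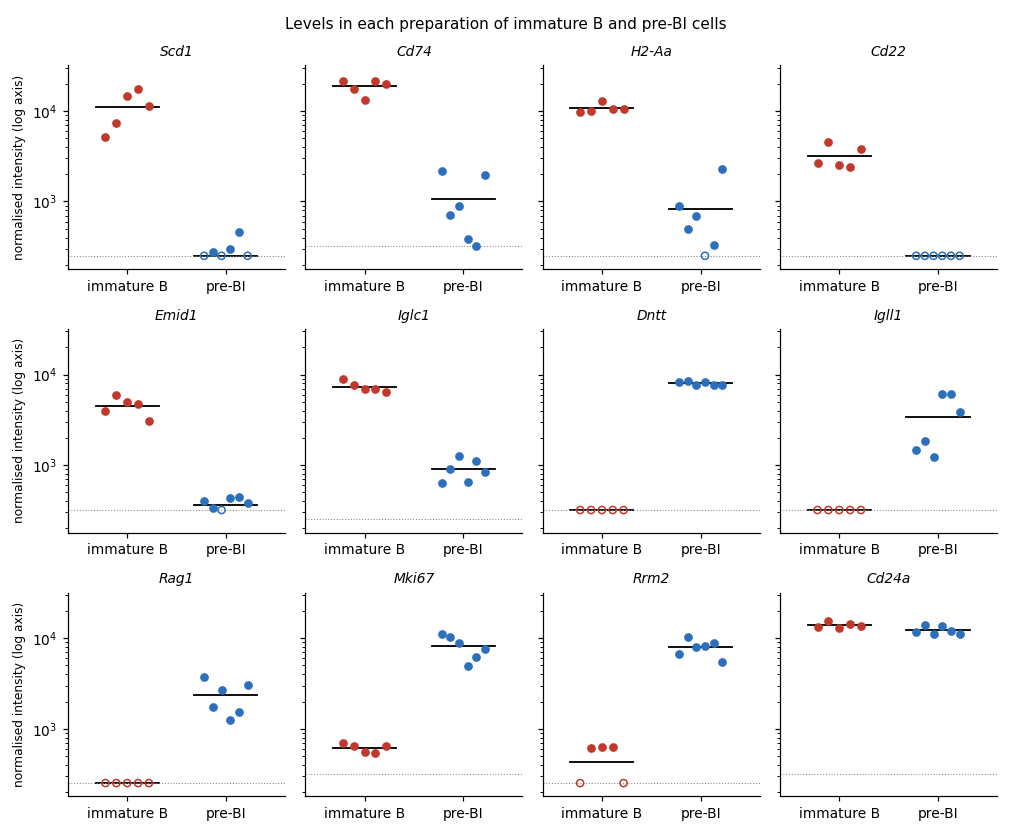
Normalised intensity (log axis) of 12 genes in each preparation, immature B cells at the left of each panel (5 points) and pre-BI cells at the right (6 points), with a bar at the mean and a dotted line at the noise limit. Open points lie under the limit and are drawn at it; the groups are apart in every panel but that of Cd24a, where immature preparations at 12850 to 15540 overlap pre-BI preparations at 11130 to 13960.

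Class II antigen presentation was the list with the highest median: 9 of 12 tested genes were higher, none was lower, and the median log2 difference was 3.21 in the fit and 1.72 at the noise limit. Class II molecules carry peptides to helper T cells. Cd74, the invariant chain that guides them to the endosome, was 21580, 17450, 13060, 21580 and 20050 in immature preparations, against 323 to 2190 (median 798) in pre-BI cells, 22.1-fold higher (adjusted p = 2.2e-11). H2-Aa, an alpha chain, was 9738, 9962, 12850, 10450 and 10450 in immature preparations and 208 to 2296 (median 593) in pre-BI cells, 17.1-fold higher, with the highest pre-BI value in sort 10. All 5 probe sets of H2-Aa were higher, by 5.01-fold to 17.1-fold. Whether class II probe sets also read related genes of the family was not tested. The log2 differences of the fit were 3.87 within sorts 1 to 3 and 4.38 within sorts 8 to 11 for H2-Aa, and 4.12 and 4.84 for Cd74. The beta chains H2-Ab1 and H2-Eb1 were 7.62-fold and 13.5-fold higher (adjusted p = 0.00015 and 6.5e-06). Their log2 differences of the fit were 7.96 and 9.21 within sorts 1 to 3, and smaller within sorts 8 to 11, at 3.37 and 4.68. A second H2-Eb1 probe set, at 722 in immature and 618 in pre-BI cells, did not pass.

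The genes that load class II molecules moved with them. H2-DMa and H2-DMb1, the chains of the peptide exchange factor, were at least 2.52-fold and 3.02-fold higher, and H2-Ob, a chain of its inhibitor, was 3.39-fold higher. Ctss, the protease that trims the invariant chain, was 6221, 7130, 8386, 7944 and 6930 in immature preparations, against 1737 to 2957 (median 2366) in pre-BI cells (3.18-fold higher, adjusted p = 1.4e-07), and Ctsh, another cathepsin, was 6.95-fold higher. Ciita, the activator of class II genes, was under the limit in all 11 preparations, and H2-Oa and Lgmn did not pass (adjusted p = 0.085 and 0.056). In mature cells the class II chains averaged 19860 for H2-Aa, 10980 for H2-Ab1 and 14960 for H2-Eb1, above the immature means of 10690, 2924 and 4475. CCAAT letters were in the windows of 5 of the 6 higher class II genes that have one and of both list members that did not pass (H2-Oa and Lgmn), against 41.1% of 27025 genes.

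Macrophages and dendritic cells also make class II molecules, and their markers were read beside this list. Of 13 tested genes 2 were lower and none was higher in immature cells, 6 were under the limit in all 11 preparations (Adgre1, Fcgr3, C1qa and C1qc among them), and the summed level of the list was 4077 to 6901 in immature and 7840 to 14530 in pre-BI preparations, which do not overlap. Lyz2, the lysozyme of myeloid cells, was 2554, 2938, 2038, 2843 and 4373 in immature preparations, against 4118 to 8972 in pre-BI cells (adjusted p = 0.014), a call lost without pre-BI sort 10 or immature sort 8 (adjusted p = 0.0525 and 0.0632). Mpeg1 passed at an adjusted p of 0.046 and lost its call when any single preparation other than pre-BI sort 9 was left out (adjusted p from 0.0547 to 0.127). Bright genes such as Lyz2 weigh most in the summed level. The part of macrophages and dendritic cells in the class II differences was not tested.

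Of 12 class I and immunoproteasome genes tested, 1 was higher, none was lower and 2 were shared. Over all genes 5.53% were higher and 6.01% lower. Tapbp, which encodes the loading factor tapasin, was 1.95-fold higher (9877 ± 1341 in immature, 5138 ± 1232 in pre-BI cells, adjusted p = 0.0001). H2-D1, a class I heavy chain, was shared at 11410, 5716, 6852, 8190 and 11830 in immature preparations and 6141 to 11090 (median 8109) in pre-BI cells (95% confidence interval -0.38 to 0.53 on the log2 scale). Psmb8, an immunoproteasome subunit, was shared at 3002 in immature and 3045 in pre-BI cells, and averaged 1764 and 1755 in large and small pre-BII cells.

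The B cell receptor and its first signalling steps were higher. Of 15 tested genes of this list, 8 were higher and none was lower. Cd79b, which encodes the Ig-beta signalling chain, was 12680, 13390, 13240, 11540 and 13240 in immature preparations, against 2080 to 7767 (median 4342) in pre-BI cells (2.96-fold higher, adjusted p = 6.1e-07), and Cd79a, its Ig-alpha partner, was 2.8-fold higher. Blk, a Src family kinase of B cells, was 6852, 14050, 12450, 11410 and 9218 in immature preparations and 1569 to 3015 (median 2556) in pre-BI cells, 4.63-fold higher (adjusted p = 2.7e-10). Syk, the kinase that binds the phosphorylated receptor tails, was 2.33-fold higher, Prkcd, a protein kinase C, 2.6-fold, and Plcg2, the phospholipase of the pathway, 2.59-fold. Grb2 and Itpr2 were the other higher members. Vav1 and Btk did not pass (adjusted p = 0.39 and 0.91).

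Among immunoglobulin genes, Iglc1, a lambda light chain constant region, was 8900, 7612, 6970, 6891 and 6413 in immature preparations, against 631 to 1272 (median 873) in pre-BI cells, 8.41-fold higher (adjusted p = 1.9e-11). Iglc1 is one of several near-identical constant regions, and the probe set may read more than one of them. Of the 5 genes tested of the immunoglobulin list, Iglc1 and Ighm were higher and none was lower. Outside that list, probe sets of the kappa light chain genes Igk and Igkv4-91 were also higher, by at least 2-fold. Whether these read related kappa genes was not tested. Ighd, the delta chain that marks the mature cell, was over the limit in 1 immature and 0 pre-BI preparations and averaged 897 in mature cells.

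The brakes on the receptor were higher as well. Of 9 inhibitory coreceptors and phosphatases, Ptprc included, 6 were higher and 1 was lower. Cd22, a lectin that dampens the receptor, was 2669, 4534, 2541, 2415 and 3769 in immature preparations and under the limit in all pre-BI preparations, at least 12.3-fold higher (adjusted p = 7.9e-10). Ptpn6, which encodes the phosphatase SHP-1 that Cd22 recruits, was 8473, 8266, 4859, 5606 and 8900 in immature preparations, against 739 to 1918 (median 1448) in pre-BI cells (5.28-fold higher, adjusted p = 1.9e-08). Cd72 was 4.83-fold higher, and Pirb and Csk, a kinase that restrains Src kinases, passed at adjusted p of 0.046 and 0.023. Inpp5d, the lipid phosphatase SHIP-1, was the lower member, at 1340 ± 222 in immature and 2597 ± 870.4 in pre-BI cells (1.85-fold, adjusted p = 0.032).

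Surface genes of the mature B cell were already higher at the immature stage: 15 of 21 tested were higher and none was lower, with a median log2 difference of 1.99 in the fit and 1.04 at the noise limit. Cd83, a glycoprotein that stabilises class II molecules at the surface, was 3114, 2057, 2202, 2457 and 3493 in immature preparations, against -5.6 to 338 (median 166) in pre-BI cells (9.7-fold higher, adjusted p = 3.8e-09). Ly86, which pairs with the receptor-like Cd180, was 11.3-fold higher on one probe set and 3.97-fold on another. Fcer2a, the low-affinity IgE receptor CD23, was 1218, 2176, 1019, 1403 and 1871 in immature preparations and under the limit in pre-BI cells (at least 5.88-fold higher, adjusted p = 4.5e-09), and averaged 6485 in mature cells. Il4ra, the interleukin 4 receptor, and Cd2, an adhesion molecule, were at least 6.06-fold and 5.22-fold higher. For Cd2 the log2 difference of the fit was 8.5 within sorts 1 to 3 and 5.22 within sorts 8 to 11. Cd37, Cd53, Ltb, Cd40 and Cd55 were among the other higher members, while Cr2, Cd80 and Cd86 did not pass.

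Of 15 homing and adhesion genes, 5 were higher and 1 was lower. S1pr1, the receptor for sphingosine 1-phosphate through which lymphocytes leave tissues, was 1306, 1009, 1284, 716 and 1487 in immature preparations, against 31.3 to 319 (median 252) in pre-BI cells (4.09-fold higher, adjusted p = 1.6e-05), and averaged 2024 in mature cells. Ccr7, a chemokine receptor of lymph node homing, was 2.06-fold higher, and Icam2, an adhesion ligand, 2.63-fold. Selplg, a selectin ligand, was 1.83-fold lower (1723 ± 319 in immature, 3240 ± 991 in pre-BI cells, adjusted p = 0.0064). Its call was lost within sorts 1 to 3 and within sorts 8 to 11 (adjusted p = 0.112 and 0.194). Cxcr4, the receptor that holds precursors in the marrow, averaged 957 ± 675 in immature and 1853 ± 1146 in pre-BI cells, which did not pass (adjusted p = 0.22).

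Of 14 later B cell transcription factors, 4 were higher and none was lower. Klf2, a factor of resting lymphocytes, was 6950, 4329, 3351, 3209 and 4065 in immature preparations, against 483 to 1150 (median 1048) in pre-BI cells (4.57-fold higher, adjusted p = 4e-07). Nfkbia, an inhibitor and target of NF-kappaB, was 3.03-fold higher, and Irf8 2.19-fold (adjusted p = 0.0013). Pou2af1, the coactivator OBF-1, was 1.96-fold higher (adjusted p = 0.013), a call lost without immature sort 8 (adjusted p = 0.0652). Irf4 did not pass between the 2 populations (1375 in immature and 711 in pre-BI cells, adjusted p = 0.075), and averaged 4967 in the small pre-BII cells between them. Of 13 immediate-early genes, 5 were higher (Btg2, Zfp36, Jund, Egr1 and Dusp2) and 1 was lower. Btg2, which restrains division, was 4598, 4582, 3819, 3424 and 3570 in immature preparations, against 849 to 2031 (median 1738) in pre-BI cells (2.52-fold higher, adjusted p = 1.6e-05). Dusp1 was the lower one (adjusted p = 0.0019) and was under the limit in all 11 preparations.

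The list with the most lower genes was that of mitosis. Of 35 tested genes of G2 and mitosis, 30 were lower and none was higher, with a median log2 difference of -2.5 in the fit and -1.85 at the noise limit. Mki67, the proliferation antigen Ki-67, was 703, 647, 557, 544 and 637 in immature preparations, against 4990 to 11260 (median 8282) in pre-BI cells, 12.9-fold lower (adjusted p = 1.3e-13). Cdk1, the mitotic kinase, was 998, 609.6, 663, 907 and 634 in immature preparations and 4534 to 7612 (median 5191) in pre-BI cells (7.56-fold lower, adjusted p = 1.9e-10). The groups stood apart for both, and within sorts 1 to 3 and sorts 8 to 11 the log2 difference of the fit for Mki67 was -3.91 and -3.43. Prc1, which bundles the spindle midzone, and Ccnb2, a mitotic cyclin, were each at least 5.21-fold lower, Nusap1, a spindle protein, at least 14.4-fold, Cks1b, a partner of the cyclin kinases, 11.4-fold and Aurkb, the kinase of chromosome segregation, 9.32-fold. Outside the list, the tubulin genes Tuba1a and Tubb5 were 12.1-fold and 9.78-fold lower. The 5 members that did not pass were Plk1, Bub3, Cenpe, Kif4 and Hmmr.

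DNA replication followed, with 24 of 31 tested genes lower, none higher and a median log2 difference of -1.99 in the fit and -1.33 at the noise limit. Rrm2, a subunit of ribonucleotide reductase, was 106, 610.5, 624, 625 and 177 in immature preparations, against 5419 to 10320 (median 8094) in pre-BI cells, 17.9-fold lower (adjusted p = 2.6e-09), and its partner Rrm1 was 7.37-fold lower. Lig1, the ligase that joins lagging strand fragments, was 228, 218, 337, 260.4 and 275 in immature preparations and 2510 to 3360 in pre-BI cells (10.6-fold lower). Tyms, which makes thymidylate, was at least 5.01-fold lower, and Tk1, the thymidine kinase, 4.81-fold. All 7 tested subunits and partners of the MCM helicase (Mcm2 to Mcm7 and Mcm10) were lower, Mcm6 by 7.63-fold (547 ± 238 in immature, 3896 ± 816 in pre-BI cells). Cdt1, which loads that helicase, averaged 668 in immature and 699.6 in pre-BI cells and did not pass (adjusted p = 0.97). CCAAT letters were in the windows of 17 of 23 lower G2 and mitosis genes and 16 of 22 lower replication genes that have a window, against 41.1% of 27025 genes. They were also in all 5 windows of the mitosis genes that did not pass and in 3 of 7 of the replication genes that did not. TTTGGCGC, the letters marked in Mcm6, was searched as a motif of the E2F factors. It was in 4 of those 22 (Mcm3, Mcm5, Mcm6 and Pola1) and in 0 of the 23, against 0.585% of genes. Among replication genes that did not pass it was in 1 of 7 (Cdt1). The second E2F motif searched was in 2 of those 22 (Mcm3 and Mcm7) and in 0 of the 23, against 1.24% of genes. Among replication genes that did not pass, this second motif was in 2 of 7 (Cdc6 and Pold1).

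Regulators of entry into the cycle were mixed. Of 12 G1 genes 6 were lower (Ccnd3, Ccne1, Cdk2, Cdk4, Rbl1 and Tfdp1) and 2 were higher (Ccnd2 and Rb1). Ccnd3, the D-type cyclin that pre-B cells depend on, was 1707, 2135, 1658, 1839 and 1360 in immature preparations, against 4428 to 7420 (median 6802) in pre-BI cells (3.51-fold lower, adjusted p = 2.2e-07). Ccnd2, another D-type cyclin, went the other way: 2296, 2873, 1828, 1329 and 2363 in immature preparations and 407 to 1216 (median 768) in pre-BI cells, 2.71-fold higher (adjusted p = 0.003). In the populations on either side Ccnd2 was under the limit on average (6.09 and -86.1 in the large and the small pre-BII cells, 55.4 in mature cells). Its call was lost with a lower floor and within either range of sorts alone, where its log2 difference of the fit was 1.53 and 1.45. Of 16 inhibitors of the cycle and genes of quiescence, 5 were higher (Btg1, Btg2, Klf2, Gadd45b and Rgs2) and 1, Cdkn2c, was lower. Btg1 was 4465, 2515, 2643, 4171 and 4678 in immature preparations, against 758 to 1016 in pre-BI cells (4.02-fold higher, adjusted p = 2.7e-07). Cdkn1b, the inhibitor p27, was shared at 2127 ± 299 in immature and 2187 ± 746 in pre-BI cells (95% confidence interval -0.43 to 0.49 on the log2 scale).

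**Figure D3:**
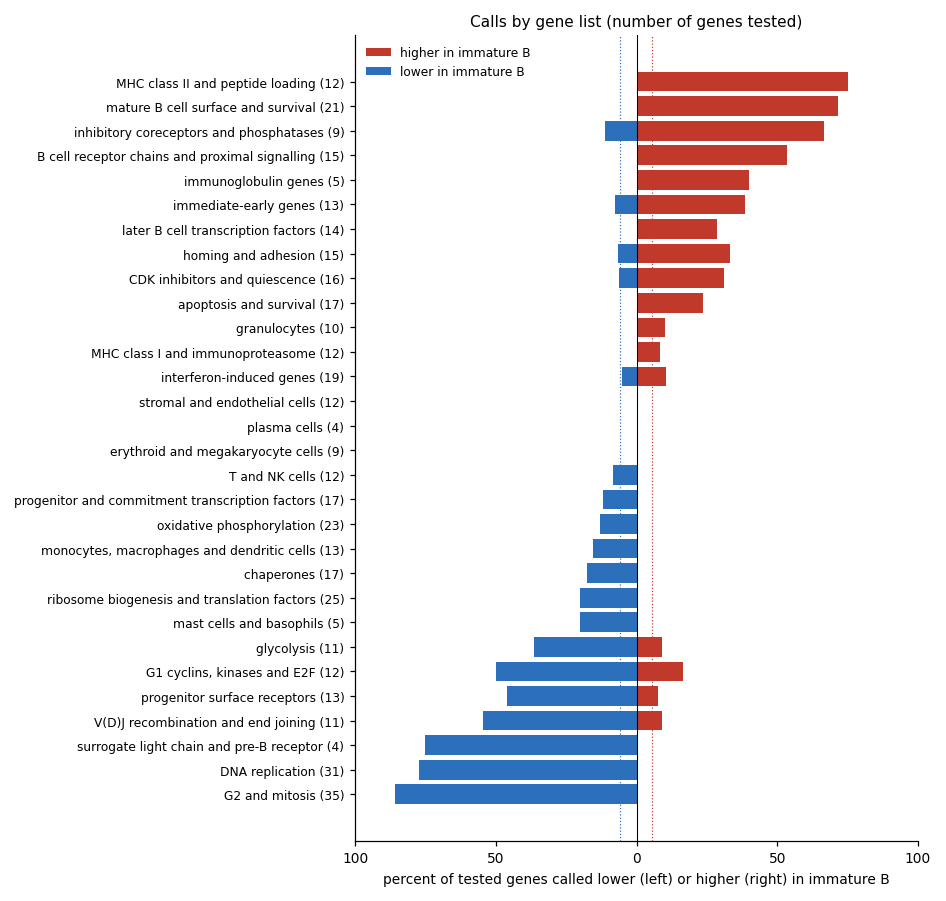
Percent of the tested genes of each list that were higher (right) or lower (left) in immature B cells, with the number of genes tested in brackets and dotted lines at the shares over all genes, 5.53% higher and 6.01% lower. Class II genes (9 of 12 higher) stand at the top and G2 and mitosis genes (30 of 35 lower) at the bottom.

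Of 25 genes of a list of ribosome biogenesis and translation, 5 were lower (Eif4a1, Fbl, Hspd1, Ncl and Eef1d), none was higher and 2 were shared. Hspd1 was counted in that list but encodes a mitochondrial chaperone. Fbl, which encodes the nucleolar protein fibrillarin, was 1047, 671, 729.9, 989 and 1245 in immature preparations, against 1488 to 2975 (median 1652) in pre-BI cells (2.02-fold lower, adjusted p = 0.0058). Of 11 glycolysis genes 4 were lower, among them Gapdh (2.24-fold, adjusted p = 0.00015) and the lactate exporter Slc16a1 (at least 2.89-fold), while Aldoa was 3.03-fold higher on its brightest probe set and did not pass on 1 of its other 2. Ldha passed at an adjusted p of 0.024 and lost the call without pre-BI sort 9 or 10 or immature sort 1, 8 or 9 (adjusted p from 0.0581 to 0.0808). Of 23 genes of oxidative phosphorylation 3 were lower, none was higher and 3 were shared, where 6.01% of all genes were lower. Atp5o, a subunit of the ATP synthase, was 2.13-fold lower, a call lost on values as deposited (log2 difference of the fit -0.66, adjusted p = 0.796) and within sorts 1 to 3 (adjusted p = 0.198). The calls of the other 2 were lost when single preparations were left out: Ndufb7 without pre-BI sort 9 or immature sort 1 (adjusted p = 0.0613 and 0.0769), and Cox5a without pre-BI sort 1, 8, 9 or 10 or immature sort 1, 8 or 11 (adjusted p from 0.0541 to 0.0979). Cox8a, a subunit of cytochrome c oxidase, was shared (14360 ± 4546 in immature, 14660 ± 3764 in pre-BI cells). Of 17 genes of the chaperone list, which leaves Hspd1 out, 3 were lower and 1, Cct5, was shared. The call of Tcp1 was lost without pre-BI sort 8 or immature sort 1 or 2 (adjusted p from 0.0507 to 0.0926). Hsp90aa1 was 1648, 2558, 3153, 2883 and 2368 in immature preparations, against 5716 to 9469 in pre-BI cells (2.97-fold lower, adjusted p = 5.3e-07).

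Of 17 genes of apoptosis and survival, 4 were higher and none was lower. Mcl1, an inhibitor of cell death, was 7832, 6029, 6250, 5829 and 8329 in immature preparations, against 503 to 1908 (median 1427) in pre-BI cells (5.46-fold higher, adjusted p = 1.7e-08). Birc3, another inhibitor of cell death, was 5.7-fold higher, Casp9, an initiator caspase of cell death, 2.6-fold, and Pim2, a survival kinase, at least 2-fold. Bcl2l1, which encodes Bcl-xL, averaged 456 in immature and 535 in pre-BI cells without passing (adjusted p = 0.99), and Bcl2 was over the limit in 0 immature and 1 pre-BI preparation. Of 19 interferon-induced genes 2 were higher (Igtp and Mx1) and 1 was lower, against 5.53% higher and 6.01% lower of all genes. The call of Igtp was lost within sorts 1 to 3 and within sorts 8 to 11 (adjusted p = 0.337 and 0.0829). The call of Mx1 was lost without immature sort 1 (adjusted p = 0.056). The lower one, Gbp7, a guanylate-binding protein, was 287, 334, 629, 638 and 771 in immature preparations, against 1065 to 3083 in pre-BI cells (3.67-fold, adjusted p = 0.00031).

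Probe sets of 1 gene did not always go together. The brightest probe set passed and another did not for Ighm, Prkcd, Csk, Myb, Notch1, Ldha, Tpi1, Slc16a1, Eif4a1, Mpeg1, Mcpt8, Kif2c, Cdc45, Bub1 and Rrm2. For Bub3, Hmmr and Sox4 the brightest did not pass and another was lower. On values as deposited, without normalisation, the calls of Aldoa, Btg2, Casp9, Ccnd3, Ccr7, Cdk4, Cox5a, Gadd45b, Gbp7, Hsp90aa1, Ighm, Igtp, Irf8, Jund, Ldha, Lyz2, Mpeg1, Mx1, Myb, Ndufb7, Pou2af1, Prtn3, Tapbp, Tcp1 and Zfp36 were lost as well as that of Atp5o (adjusted p from 0.0504 to 0.869), with the direction kept.

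Outside these lists the largest falls included Ptgr1 and Emp1. Ptgr1, an enzyme that reduces prostaglandins and related lipids, was 204, 492, 319, 59.4 and -3.4 in immature preparations, against 3424 to 7016 (median 4832) in pre-BI cells, 15.8-fold lower (adjusted p = 7.1e-12). Emp1, an epithelial membrane protein, was 341, 184, 186, 188 and 190.4 in immature preparations and 1913 to 4598 (median 3005) in pre-BI cells, 11.3-fold lower (adjusted p = 2.1e-09).

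Among genes at shared levels, the brightest outside ribosomal proteins are given here. Rac2, a small GTPase of blood cells, was 19290, 21580, 21580, 20050 and 21580 in immature preparations and 15540 to 20050 in pre-BI cells (log2 difference of the fit 0.17, 95% confidence interval -0.03 to 0.37). Actb, the beta actin gene, averaged 14130 ± 2366 in immature and 15640 ± 763 in pre-BI cells. Srgn, the proteoglycan serglycin, averaged 10430 ± 971 in immature and 11260 ± 1539 in pre-BI cells. Eef1a1, a translation elongation factor, averaged 18040 ± 849 in immature and 18760 ± 464 in pre-BI cells. Hba-a1, an alpha globin of red cells, was shared too, at 10520 ± 1363 in immature and 10500 ± 2426 in pre-BI cells (95% confidence interval -0.41 to 0.48 on the log2 scale). Quantile normalisation gives every array of a set the same values, so the brightest probe sets differ only in rank.

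**Figure D4:**
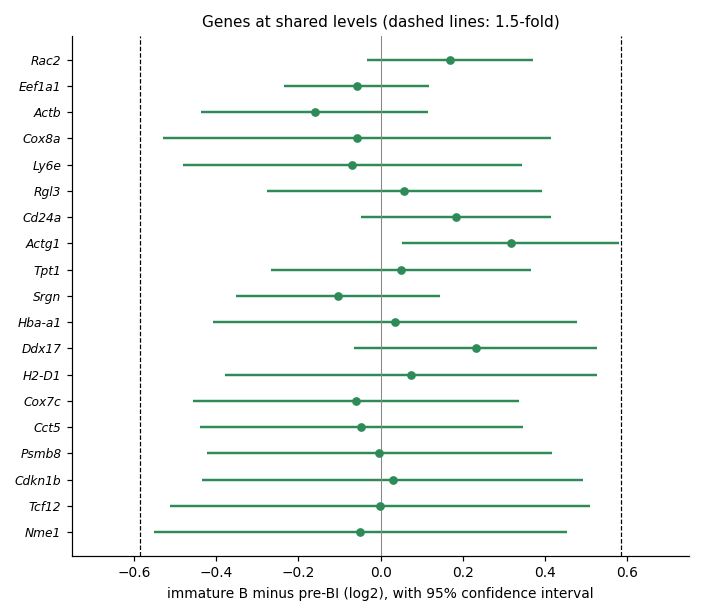
Difference of immature B minus pre-BI cells (log2, points) with its 95% confidence interval (lines) for the named genes at shared levels, brightest at the top. All intervals lie between the dashed lines at 1.5-fold either way; that of Actg1 reaches 0.58.

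Markers of other marrow cells were read by list. Of 12 T and NK cell genes, 8 were under the limit in all 11 preparations, with Cd3g, Cd3d and Cd4 among them, and the summed level was 305 to 917 in immature and 379 to 3270 in pre-BI preparations. The lower member was Gzma, a granzyme, which was under the limit in all immature preparations and 836 to 2416 (median 1105) in pre-BI cells (at least 3.87-fold lower, adjusted p = 2.3e-07). Of 10 granulocyte genes 1, Prtn3, was higher (adjusted p = 0.049), a call lost in 8 of the 11 fits without a preparation (adjusted p from 0.0705 to 0.159), and Mpo and Elane were under the limit throughout. The granulocyte list summed to 3369 to 5170 in immature and 2183 to 11670 in pre-BI preparations, and the erythroid list to 15450 to 20910 in immature and 11170 to 25380 in pre-BI preparations, so both overlapped. Neither plasma cell genes (0 of 4) nor stromal and endothelial genes (0 of 12) held a call, and of 5 mast cell and basophil genes Mcpt8 was lower (adjusted p = 0.01), over the limit in 1 pre-BI preparation. The part of these cells in the differences above was not tested.

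The populations between pre-BI and immature cells place the differences along the lineage, by means of log2 values raised to the noise limit. Of 268 probe sets called higher with at least 2-fold, the mean first passed the midpoint, on the log2 scale, between the pre-BI and immature means at large pre-BII in 32 (11.9%), at small pre-BII in 104 (38.8%) and only at the immature stage in 132 (49.3%). Of 273 called lower, 60 (22%) did so at large pre-BII, 179 (65.6%) at small pre-BII and 34 (12.5%) at the immature stage. Dntt, Igll1 and Emp1 belong to the early falls, with large pre-BII means of 288, 429 and 441. Mki67, Rrm2 and Lig1 were at 12600, 8915 and 2424 in large pre-BII cells and at 1696, 2124 and 415 in small ones. Rag1, Ptgr1 and Slc16a1 belong to the late falls: Rag1 averaged 1207 in large and 5182 in small pre-BII cells before it was under the limit in immature cells.

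On the rising side, Iglc1, Ly6d and Samhd1 had passed their midpoints in small pre-BII cells, at 5410, 9620 and 3119. H2-Aa, Cd22 and Cd83 did so at the immature stage: Cd22 averaged 347 and Cd83 234 in small pre-BII cells, against the immature means of 3185 and 2665. Most of the differences were found in mature cells as well: their mean was on the immature side of the midpoint for 224 of the 268 higher (83.6%) and 261 of the 273 lower probe sets (95.6%). Emid1, Pld4 and Ccnd2 were among the exceptions, with mature means of 390.4, 1079 and 55.4. These counts describe population means and carry no test.

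**Figure D5:**
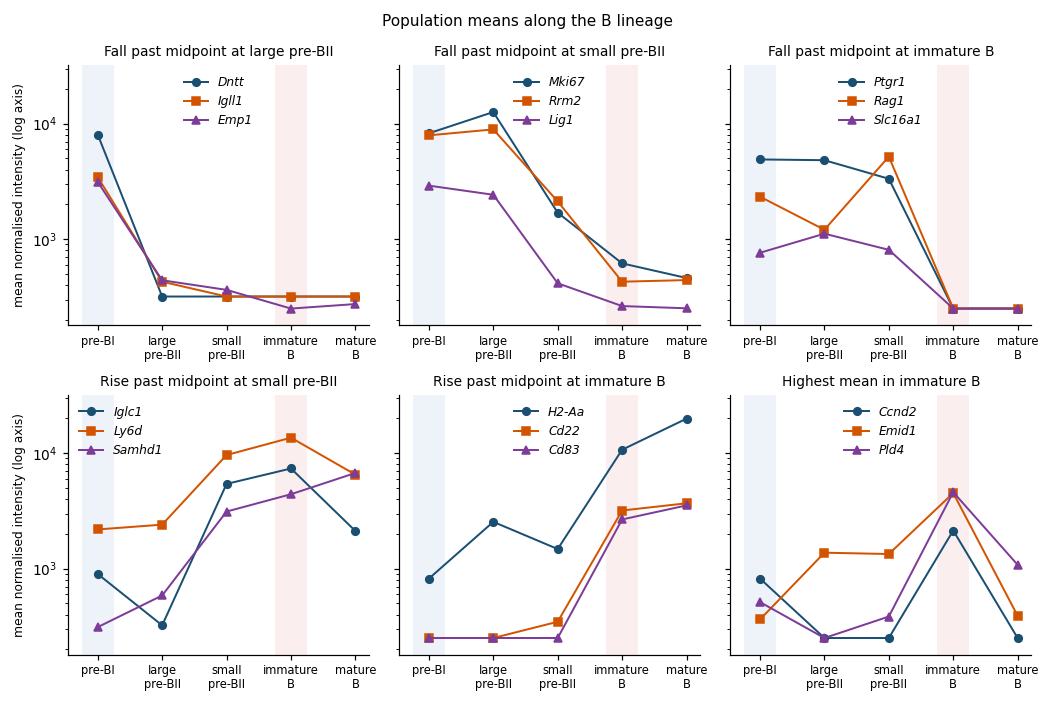
Mean normalised intensity (log axis) of 18 genes in the 5 populations in their order along the lineage, with means under the noise limit drawn at it and pre-BI and immature B columns shaded. Panels group genes by where the mean first passes the midpoint between pre-BI and immature cells, and the last panel shows 3 genes with their highest mean in immature B cells, such as Emid1 at 4512.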

How the data were processed

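Each array set has 1 deposited table of intensities, made by the authors, on a linear scale that includes negative values (6584 and 6595 probe sets). Scanning, summarising and scaling of the arrays: not given in the sources used here. Groups came from sample titles and descriptions. After removal of 110 control probe sets, arrays of a set were quantile-normalised (limma 3.58.1 in R 4.3.3) and second arrays of a sort averaged with the first. In the mature B cells, 1 array identical in all values to another was left out. A floor at percentile 40 of each table (87.6 and 6.89) replaced lower values before log2. Testing was limited to probe sets above the floor in 5 or more of the 26 preparations, which left 5019 and 5210. All 26 preparations entered 1 fit per set (lmFit and eBayes with a trend), 2-sided, with Benjamini-Hochberg adjustment over both sets. The fit was also run on simulated data, with known differences set only in probe sets whose mean was over the noise limit. The simulated noise was independent between preparations, without sort ranges or scaling differences, so the run does not cover those or dim probe sets.

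The noise limit is 2 robust standard deviations of the negative values. Of 13069 probe sets that are not controls, 7542 have 1 gene symbol, 224 several and 5303 none; only the first kind was named, with symbols updated through RefSeq. Named by rule were the gate genes and 3 markers, the 15 largest rises and falls (at least 2-fold, no overlap), up to 4 passing members of each list with the lowest adjusted p, or the 2 brightest where none passed, and the brightest shared genes. Other list members were named after their values were seen. Alternatives changed scaling, floor, filter, trend, samples fitted, blocks and the width of the shared interval. The members, lists and rules were chosen with earlier results of these data known, so they give no independent support. Deviations from population means correlated at 0.16, 0.018, 0.016 and 0.035 between immature and pre-BI preparations of equal sort number, so the numbers were not taken to pair them.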

Additional observations from a re-analysis of the deposited data

Results flagged for a closer look

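Among 184 sets of preparations (the named genes over the noise limit in all preparations of a population), 15 (8.15%) had 1 preparation whose gap to the nearest other was large against the range of its group. The cut-off is one that a single set passes by chance in about 1 in 20 cases. These sets share preparations and come from genes named by rule, so 8.15% does not measure an excess over chance. In immature B cells, sort 1 was the one in 5 cases: Samhd1 at 2708 against 4699 to 4928 in the others, Lsp1 at 1580 against 4509 to 5716, Atp5o at 940.1 against 2091 to 2639, Casp9 at 401.6 against 748.9 to 901.7 and Tcf12 at 1164 against 814.9 to 840.5. Immature sort 8 was low for the second Ms4a1 probe set, at 8900 against 12170 to 13760, and high for H2-Aa, at 12850 against 9738 to 10450. The other Ms4a1 probe set was not flagged. Immature sort 11 was low for Tuba1a, at 475 against 967.1 to 1252.

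In pre-BI cells, sort 8 was low for Btg2 (848.8 against 1544 to 2031), Hba-a1 (5894 against 10540 to 13060) and Rac2 (15540 against 18630 to 20050). Pre-BI sort 1 was high for Prkcd (2957 against 1549 to 1852) and low for Slc16a1 (352.6 against 674.5 to 910.9). Pre-BI sort 9 was low for Klf2 (482.6 against 901.2 to 1150), and pre-BI sort 2 was low for Ncl (536.6 against 2212 to 3196), where it lay within the immature range. The cause of these gaps was not tested.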

How the results depend on the processing

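Of the 890 calls, all kept their direction wherever they were tested, except 1 within sorts 1 to 3 (889 of 890). Without scaling, 227 probe sets were higher, 232 lower and 23 shared, and with 75th-percentile scaling 101 were shared. Within sorts 1 to 3 alone (2 against 3 preparations) 127 were higher, 146 lower and 29 shared, and within sorts 8 to 11 alone 73 were shared. Of 132 named probe sets, 39 lost their call within sorts 1 to 3 and 14 within sorts 8 to 11. Lost within each range were Ccnd2, Cox5a, Dusp1, Hspd1, Ighm, Igtp, Lyz2, Mcpt8, Mpeg1, Mx1, Ndufb7, Pou2af1, Prtn3 and Selplg. Others, lost within sorts 1 to 3 only, included Syk, Lsp1, Irf8, Eif4a1, Ncl, Pim2, Pld4, Enpep, Thy1, Cd72, Gapdh, Tapbp, Fbl and Kit. A narrower interval left 11 shared and one of 2-fold gave 1026. Leaving out each preparation in turn gave 368 to 448 higher, 395 to 452 lower and 132 to 173 shared. With sort number as a replicate block, 526 were higher, 558 lower and 328 shared; equal numbers were not shown to be paired. On the b set the 25th percentile lay under 0, so the main floor was kept there in that alternative. Only 40% of first-set and 20.1% of b-set values exceeded the noise limit, which limits what could be read of dim genes.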

Other observations

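Outside the lists, genes chosen here after their values were seen add to both sides. Ezh2, the histone methyltransferase of the Polycomb complex, averaged 380 in immature and 2914 in pre-BI cells (7.83-fold lower). Smarca4, the motor of a chromatin remodelling complex, averaged 1482 in immature and 7303 in pre-BI cells (4.91-fold lower), and Lmnb1, a lamin, 427 in immature and 2320 in pre-BI cells (5.38-fold lower). Dnmt1, which copies DNA methylation onto new strands, averaged 8.76 in immature and 967 in pre-BI cells (at least 2.94-fold lower). H2az1, a histone variant, was 3.9-fold lower (1651 in immature, 6298 in pre-BI cells). All 5 passed in the limma fit, with adjusted p from 9.6e-10 for Smarca4 to 3.4e-05 for Dnmt1.

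Ada, adenosine deaminase, averaged 49.4 in immature and 927 in pre-BI cells (at least 3.5-fold lower), and Pnp, a purine phosphorylase, 2288 in immature and 7597 in pre-BI cells (3.24-fold lower). Phgdh, the first enzyme of serine synthesis, averaged 509 in immature and 1921 in pre-BI cells (limma, adjusted p = 3.9e-05). Among the higher genes, Ero1b, an oxidase of the endoplasmic reticulum, averaged 4952 in immature and 855 in pre-BI cells (6.04-fold), and Lat2, an adaptor of receptor signalling, 1933 in immature and 288 in pre-BI cells (5.71-fold). Jarid2, a partner of the Polycomb complex, averaged 6977 in immature and 1636 in pre-BI cells (4.12-fold higher), but 1 of its 3 probe sets did not pass. These genes were picked for their differences and carry no test of a group.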
